A study of Mus musculus with 35 samples.

Results

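The 7 genes described here, Ccl2, Ccl3, Ccl4, Ccl5, Ccl7, Ccl12 and Ccl19, encode CC chemokines. They were chosen by gene name from 19573 genes measured in 35 libraries of astrocytes, sorted by flow cytometry from the mouse cortex. All 7 were found, and all 7 passed the filter on low values, so each is followed through every library. The mice carried the genotype written Aldh1l1egfp, in which a green fluorescent protein reports Aldh1l1, an enzyme gene of astrocytes, and the label was shared by LPS and saline mice alike. They were aged P30-35 and received lipopolysaccharide (LPS, a bacterial cell wall component that triggers innate immunity) at 5 mg/kg, or saline. Female LPS libraries numbered 5 at 3 h, 4 at 24 h and 3 at 72 h, against 4, 5 and 4 female saline libraries at those times. Males were sampled at 24 h, with 5 LPS and 5 saline libraries. The labels do not state which libraries share an animal, and the p-values thus rest on library-to-library spread, which may be technical.

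Chemokines are small secreted proteins that bind to G protein-coupled receptors and draw leukocytes along a gradient; in the CC family the leading pair of conserved cysteines is adjacent. Ccl2, Ccl7 and Ccl12 are ligands of Ccr2, the receptor through which monocytes leave the blood. Ccl3, Ccl4 and Ccl5 attract macrophages and effector T cells, Ccl3 and Ccl5 in part through Ccr1. Ccl19 is a ligand of Ccr7, which guides T cells and mature dendritic cells in lymphoid tissue. In the inflamed brain these chemokines are known products of microglia, astrocytes, endothelial cells and infiltrating leukocytes.

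The feature that names the family is shown first, because all 7 members share it while the bases around it differ. Each line gives 54 bases of the coding sequence of GENCODE release M21, with the adjacent cysteine codons in capitals and 24 bases on either side.
Ccl2: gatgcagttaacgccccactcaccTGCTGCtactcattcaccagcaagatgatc
Ccl7: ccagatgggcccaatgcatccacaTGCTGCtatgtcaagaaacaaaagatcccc
Ccl12: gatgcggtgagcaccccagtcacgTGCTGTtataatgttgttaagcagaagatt
Ccl3: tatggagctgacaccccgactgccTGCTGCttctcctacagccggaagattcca
Ccl4: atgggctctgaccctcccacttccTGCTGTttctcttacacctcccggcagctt
Ccl5: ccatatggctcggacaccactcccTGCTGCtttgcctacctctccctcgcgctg
Ccl19: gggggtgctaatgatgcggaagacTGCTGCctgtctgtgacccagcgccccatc
The first cysteine of the pair was codon 34 in Ccl2, Ccl3 and Ccl4 and codon 33 in Ccl5, Ccl7, Ccl12 and Ccl19. The second codon of the pair was TGT in Ccl4 and Ccl12 and TGC in the others. Identity over the whole coding sequence was taken per alignment position, with gaps counted. By this measure Ccl3 and Ccl4 stood highest, at 68.1%, followed by Ccl7 and Ccl12 at 63.2% and Ccl3 and Ccl5 at 61.6%. Ccl2 and Ccl5 stood lowest, at 40.9%. The Ccl2 coding sequence used had 444 bases, against 273 for Ccl5 and at most 348 for the other members. Gaps thus lower every pair with Ccl2, and these values do not rank the pairs by the bases that align. No 50-base word of the Ccl2, Ccl3, Ccl4, Ccl5, Ccl7 or Ccl12 transcripts occurred in a transcript of another gene. Of the 914 such words of Ccl19, 475 (52.0%) occurred in Ccl19-ps1, Ccl19-ps3, Gm12407 or Gm2564. The Ccl19 values are therefore uncertain, because the counting could have split reads among these copies.

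On mm10 (GRCm38), 6 of the 7 genes lie on chromosome 11, and all 7 are annotated as protein-coding, each with 3 exons in the transcript used. Ccl2 (82035571 to 82037453), Ccl7 (82045712 to 82047525) and Ccl12 (82101845 to 82103400) lie together on the plus strand. Ccl2 and Ccl7 are 8258 bp apart with no protein-coding gene between them, and Ccl11 lies between Ccl7 and Ccl12. Ccl5 (83525778 to 83530518, minus strand), Ccl3 (83647844 to 83649355, minus strand) and Ccl4 (83662584 to 83664683, plus strand) form a second group 1422377 bp further on. Ccl3 and Ccl4 are 13228 bp apart, with no protein-coding gene between them. Ccl19 lies on chromosome 4 (42754525 to 42756577, minus strand).

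RefSeq promoter sequences on GRCm38.p6, from 250 bases before to 50 bases after the start site, were at hand for 3 members, Ccl3, Ccl12 and Ccl19. Those of Ccl12 and Ccl19 are shown because their highest group means stood at different times after LPS. In Ccl12 (chr11:82101595-82101894, plus strand) the capitals mark TATAAA at bases 220 to 225. In Ccl19 (chr4:42756316-42756615, minus strand) they mark a match to TTTCNNTTTC, the core of the interferon-stimulated response element. It is read on the other strand at bases 43 to 52. On the minus strand the GENCODE gene begins at 42756577, within this window, and the match falls just inside it. Whether the match lies before the start site thus depends on the annotation.
Ccl12 promoter: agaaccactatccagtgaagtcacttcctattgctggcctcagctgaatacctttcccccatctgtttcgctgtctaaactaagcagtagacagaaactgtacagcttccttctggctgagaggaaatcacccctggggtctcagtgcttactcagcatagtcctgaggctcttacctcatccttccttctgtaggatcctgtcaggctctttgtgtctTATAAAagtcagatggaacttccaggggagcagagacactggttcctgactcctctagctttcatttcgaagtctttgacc
Ccl19 promoter: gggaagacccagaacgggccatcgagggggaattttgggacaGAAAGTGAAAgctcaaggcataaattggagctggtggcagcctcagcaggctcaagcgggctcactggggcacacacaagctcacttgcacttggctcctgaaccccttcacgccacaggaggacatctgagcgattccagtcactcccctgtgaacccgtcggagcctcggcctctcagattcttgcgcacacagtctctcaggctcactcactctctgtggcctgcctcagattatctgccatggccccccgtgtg
Both strands were searched for 5 motifs. TATAAA was in 13.6% of 32851 promoters of that length, TTTCNNTTTC in 3.44%, TTCNNNGAA (the interferon-gamma activated site) in 8.3%, TGANTCA (the AP-1 site) in 7.81% and the NF-kB motif in 4.51%. The Ccl3 window (chr11:83649329-83649628) held none of the 5 letter patterns. A match describes the letters only, and no binding was measured.

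Gene expression was given as FPKM, a fragment number divided by transcript length and by the size of the library. FPKM summed to between 456417 and 565592 per library, and 14508 to 16942 genes reached 1 FPKM. The depth in reads is unknown, so no counting interval is given, and a value of 0 is reported as listed at 0. Ccl5 and Ccl19 passed the filter, at least 1 FPKM in at least 3 libraries, only through LPS libraries. Ccl19 was listed at 0 in every saline library. Ccl5 reached 1 FPKM in saline only in replicate 3 at 3 h (1.34 FPKM). The counts of members higher after LPS include these genes, so those counts are not independent of the filter. Genes that mark the sorted cells were high in all 35 libraries: Aldh1l1 ran from 53.8 to 289.5 FPKM, Aqp4, a water channel of astrocytes, from 150.8 to 313 FPKM, and Slc1a2, a glutamate transporter, from 469.8 to 927 FPKM. Gfap, the filament protein of reactive astrocytes, ran from 121 to 1032 FPKM. Its log2 fold change after LPS was 1.55 ± 0.25 (SE) at 3 h, 2.58 ± 0.25 in females and 1.97 ± 0.23 in males at 24 h (adjusted p = 6.1e-05, 6.12e-09 and 6.64e-07), and 1.26 ± 0.28 at 72 h (adjusted p = 0.0705). The 11 libraries whose values are stored in single precision, all from 24 h, mostly held lower chemokine values than the double-precision libraries of the same group. Replicates 4 and 5 of the LPS group at 3 h held lower values than replicates 1 to 3 for the 6 members other than Ccl19. Replicate 4 of the female LPS group at 24 h, the only double-precision library of that group, held higher values than the other three for the same 6 members.

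The first question is how the chemokine transcripts stood 3 h after LPS. In female astrocytes at 3 h, 5 of the 7 were higher after LPS than after saline: Ccl12, Ccl2, Ccl7, Ccl5 and Ccl4, at an adjusted p under 0.05 in limma on log2(FPKM + 1). Over all 19426 genes tested, 1.94% were called higher and 0.443% lower. The same 5 members had no overlap between LPS and saline libraries, against 2.98% of all genes for which every LPS library lay above every saline library. The median log2 fold change of the 7 was 3.66, and that of all tested genes 0.02.

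Ccl12, the Ccr2 ligand known from mouse, had the highest fitted fold change at 3 h. Its FPKM was 112, 196, 133, 30.9 and 35.0 in the LPS libraries, against 4.82, 1.61, 0 and 1.21 in the saline libraries. The lowest LPS library was above the highest saline library, and the LPS libraries fell into 3 high and 2 lower values. The log2 fold change was 5.07 ± 0.59 (SE; adjusted p = 2.56e-07). Ccl2, the principal monocyte attractant, had 79.7, 117, 73.7, 5.76 and 16.1 FPKM after LPS and 1.96, 0.468, 1.54 and 0.757 FPKM after saline. Again no LPS library was as low as a saline library, and the same 2 LPS libraries were the lowest. The mean was 58.5 ± 46.6 FPKM (SD, n = 5) after LPS and 1.18 ± 0.69 FPKM (SD, n = 4) after saline, with a log2 fold change of 4.19 ± 0.66 (adjusted p = 6.14e-05). Ccl7, the neighbour of Ccl2, had 50.2, 58.8, 55.0, 5.64 and 13.7 FPKM after LPS, against 3.13, 0.306, 1.98 and 0.447 FPKM after saline. Its pattern over the LPS libraries was that of Ccl2, and its log2 fold change was 3.66 ± 0.70 (adjusted p = 9.25e-04).

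Among the attractants of macrophages and effector T cells, Ccl5 had 34.2, 49.1, 34.7, 4.39 and 2.28 FPKM after LPS at 3 h. In saline it was listed at 0 in 3 libraries and had 1.34 FPKM in the fourth, so that the groups did not overlap. The log2 fold change was 3.71 ± 0.62 (adjusted p = 1.28e-04). Ccl4 had 202, 173, 114, 43.3 and 42.8 FPKM after LPS and 12.3, 14.9, 21.6 and 31.7 FPKM after saline. It was the highest of the 7 in LPS by mean, at 115 ± 73.1 FPKM (SD, n = 5) against 20.1 ± 8.64 FPKM in saline (SD, n = 4). Its log2 fold change was 2.26 ± 0.56 (adjusted p = 0.0162). This call was lost when 1 library was left out, with log2 fold changes close to that value: 2.07 without saline replicate 1 (adjusted p = 0.085), 2.16 without saline replicate 2 (0.0668), 1.99 without LPS replicate 1 (0.0737) and 2.04 without LPS replicate 2 (0.0627). Ccl3 had 138, 125, 104, 25.4 and 16.0 FPKM after LPS, against 17.4, 13.7, 20.6 and 17.7 FPKM after saline. Here LPS replicate 5 lay within the saline range, and the difference did not pass the threshold (log2 fold change 1.74 ± 0.66, adjusted p = 0.223).

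Ccl19, the Ccr7 ligand, was the lowest of the 7 at 3 h. After LPS it had 0.804, 1.36 and 0.89 FPKM in replicates 1, 2 and 5 and was listed at 0 in replicates 3 and 4, and it was listed at 0 in all 4 saline libraries. The difference did not pass the threshold (adjusted p = 0.539), and no fold is given against a group at 0.

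The 5 LPS libraries at 3 h were unequal for all of the 6 members other than Ccl19. The summed FPKM of the 7 genes ran from 115 to 720 in LPS libraries and from 31.0 to 51.8 in saline libraries, as the plot of summed levels shows. The mitochondrial genes took 7.17% and 7.63% of the FPKM sum in LPS replicates 4 and 5, 17.8% to 21.8% in LPS replicates 1 to 3, and 13.9% to 22.7% in the saline libraries. The same 2 libraries differed in marker sums. LPS replicates 4 and 5 had 7.06 and 2.37 FPKM of border macrophage markers against 19.5 to 29.0 FPKM in LPS replicates 1 to 3, and 197 and 206 FPKM of microglia markers against 238 to 391 FPKM. Their oligodendrocyte markers summed to 1277 and 1562 FPKM, against 678 to 776 FPKM. The part of these measures in the chemokine values was not tested. Without LPS replicates 4 and 5, the same 5 members passed the threshold, and Ccl3 passed too, with a log2 fold change of 2.75 ± 0.67 (adjusted p = 0.0141). The other log2 fold changes were then 5.90 for Ccl12, 5.41 for Ccl2, 5.01 for Ccl5, 4.66 for Ccl7 and 3.01 for Ccl4.

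**Figure D1:**
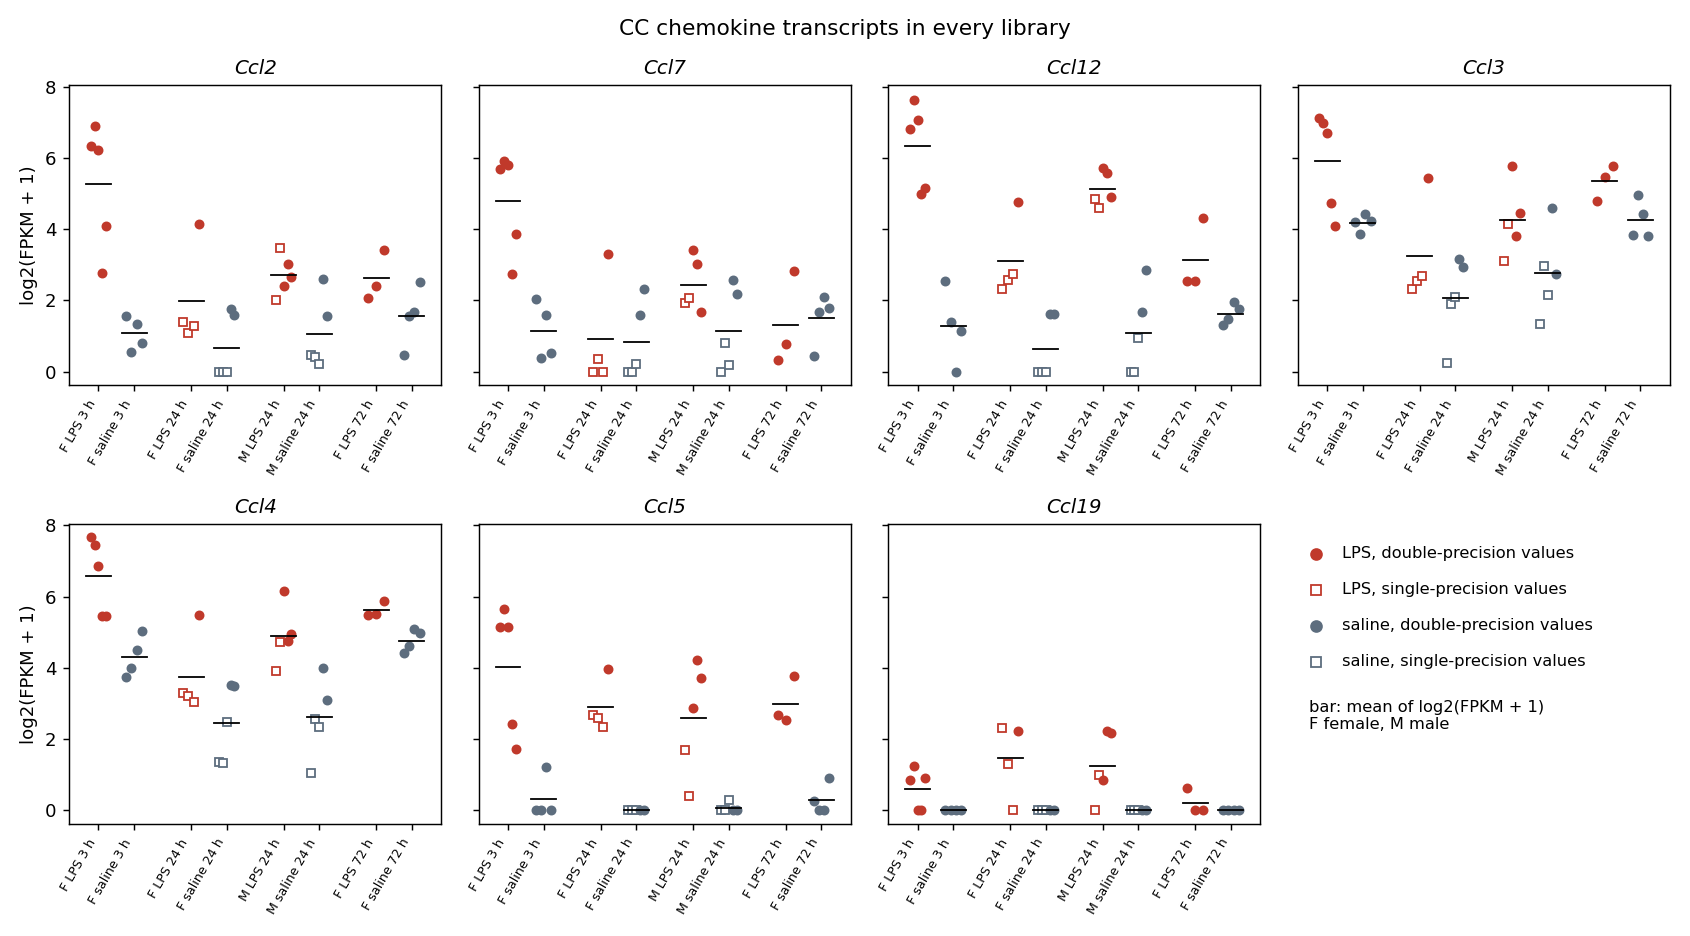
FPKM of each CC chemokine on the log2(FPKM + 1) scale (y axis) in each of the 35 libraries (points), by sex, treatment and time (x axis), with a bar at the group mean. LPS libraries at 3 h reach 202 FPKM for Ccl4 and 196 FPKM for Ccl12, replicates 4 and 5 of that group lie below the other three except for Ccl19, and at 24 h open squares (single-precision libraries) lie mostly below filled points.

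The next comparison asked what remained in females 24 h after LPS. At this time 3 of the 7 were higher after LPS than after saline, Ccl12, Ccl5 and Ccl19, against 2.54% of all tested genes called higher and 0.798% called lower. In 2 members, Ccl12 and Ccl5, every LPS library lay above every saline library, as in 3.32% of all tested genes. The median log2 fold change of the 7 was 1.31, beside 0.05 for all tested genes.

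Ccl12 had 3.94, 4.92, 5.70 and 26.3 FPKM in the LPS libraries at 24 h. In saline it was listed at 0 in replicates 1 to 3 and had 2.07 and 2.06 FPKM in replicates 4 and 5. The log2 fold change was 2.45 ± 0.59 (adjusted p = 0.0122). Within single-precision libraries, where all 3 saline values were at 0, the adjusted p was 3.5e-04. The double-precision libraries gave a log2 fold change of 3.16, from 1 LPS and 2 saline libraries, too few for a missed threshold to be read. Without LPS replicate 4 the pooled value was 1.89 (adjusted p = 0.0631).

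Ccl5 had 5.35, 5.03, 4.05 and 14.5 FPKM in the LPS libraries and was listed at 0 in all 5 saline libraries. All 4 LPS libraries were thus above every saline library (adjusted p = 0.00373), with an adjusted p of 3.86e-04 within single-precision libraries. The one double-precision LPS library, at 14.5 FPKM, faced 2 saline libraries at 0. Ccl19 had 3.996, 1.47, 0 and 3.66 FPKM in the LPS libraries and was listed at 0 in all 5 saline libraries. It was higher in 3 of 4 LPS libraries (adjusted p = 0.0138). The call was lost without LPS replicate 1 (adjusted p = 0.12) or LPS replicate 4 (adjusted p = 0.0571), and single-precision libraries alone did not give it (adjusted p = 0.166). In double precision 1 LPS library with 3.66 FPKM faced 2 saline libraries at 0, and no test is read from it.

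The other 4 members did not pass the threshold in females at 24 h. Ccl2 had 1.62, 1.12, 1.44 and 16.8 FPKM after LPS. In saline it was listed at 0 in replicates 1 to 3 and had 2.39 and 2.03 FPKM in replicates 4 and 5. Pooled, its log2 fold change was 1.31 ± 0.66 (adjusted p = 0.379), and the groups overlapped only between LPS libraries of one format and saline libraries of the other. Within single-precision libraries the 3 LPS values were all above saline, which was listed at 0 (adjusted p = 0.0435). Ccl3 had 3.96, 4.81, 5.44 and 42.5 FPKM after LPS, against 0.186, 2.71, 3.25, 7.92 and 6.63 FPKM after saline (adjusted p = 0.445). Ccl4 had 8.73, 8.16, 7.17 and 44.0 FPKM after LPS, against 1.56, 1.53, 4.59, 10.4 and 10.3 FPKM after saline (adjusted p = 0.252). For both genes the 3 single-precision LPS libraries lay above the 3 single-precision saline libraries and below the 2 double-precision ones. With the number format as a covariate Ccl4 passed the threshold (log2 fold change 1.55 ± 0.41, adjusted p = 0.0247). Ccl7 had 0, 0.282, 0 and 8.93 FPKM after LPS, against 0, 0, 0.156, 2.01 and 3.96 FPKM after saline, and the groups overlapped (adjusted p = 0.972).

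In males at 24 h, 4 of the 7 were higher after LPS than after saline: Ccl12, Ccl4, Ccl5 and Ccl19. This comparison had the most calls over all genes, 7.08% higher and 1.82% lower of those tested. Every LPS library lay above every saline library for 2 members, Ccl12 and Ccl5, and for 9.55% of all tested genes. The median log2 fold change of the 7 was 1.67, that of all tested genes 0.18. After quantile normalization the genome-wide split was 805 higher and 713 lower, against 1376 and 353 as measured, and the same number of members was called. The median of all genes was then 0.02, and 0.29 with FPKM rescaled to a common sum. The mitochondrial share of the FPKM sum was 4.87% to 16.3% in male LPS libraries and 16.8% to 23.4% in male saline libraries, with no overlap, and its part in these calls was not tested. In females at 24 h it was 5.57% to 17.3% in LPS and 8.88% to 24.4% in saline libraries.

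Ccl12 had 27.6, 23.2, 51.5, 47.0 and 28.9 FPKM in the male LPS libraries. In male saline it was listed at 0 in replicates 1 and 2 and had 0.936, 2.16 and 6.17 FPKM in replicates 3 to 5. The lowest LPS value was well above the highest saline value, with a log2 fold change of 4.04 ± 0.56 (adjusted p = 1.35e-05). It was 4.40 ± 0.32 within single-precision libraries (adjusted p = 3.2e-05, 2 LPS and 3 saline) and 3.15 ± 0.39 within double-precision libraries (adjusted p = 0.0149, 3 LPS and 2 saline). Ccl12 was thus called within each format in males.

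Ccl4 had 13.9, 25.4, 70.6, 25.9 and 29.8 FPKM in male LPS libraries and 1.06, 4.91, 4.10, 15.03 and 7.52 FPKM in male saline libraries. Only saline replicate 4 reached into the LPS range, and the log2 fold change was 2.29 ± 0.53 (adjusted p = 0.00655). Within formats it was 2.33 ± 0.47 in single precision (adjusted p = 0.044) and 1.74 ± 0.44 in double precision (adjusted p = 0.0962). Ccl5 had 2.20, 0.308, 6.34, 17.7 and 12.2 FPKM after LPS, and in saline it was listed at 0 in 4 libraries and had 0.232 FPKM in replicate 3. The LPS libraries spread widely, with the 2 single-precision ones lowest. The pooled log2 fold change was 2.52 ± 0.58 (adjusted p = 0.0068), with 0.93 ± 0.32 in single precision (adjusted p = 0.244) and an adjusted p of 0.011 in double precision, where both saline libraries were at 0. Ccl19 had 0, 0.977, 0.809, 3.71 and 3.47 FPKM after LPS and was listed at 0 in all 5 saline libraries (adjusted p = 0.0204). It was above saline in 4 of 5 LPS libraries. Its call was lost without LPS replicate 4 or 5 (adjusted p = 0.0822 and 0.0903), and within single-precision (adjusted p = 0.69) and double-precision libraries (adjusted p = 0.0921).

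Ccl2 had 3.05, 10.1, 4.24, 7.09 and 5.34 FPKM in male LPS libraries and 0.37, 0.332, 0.148, 5.02 and 1.96 FPKM in male saline libraries. Saline replicate 4 alone overlapped the LPS range, and the difference missed the threshold (log2 fold change 1.67 ± 0.63, adjusted p = 0.0799). Without saline replicate 4 it passed (adjusted p = 0.0423), as it did within single-precision libraries (2.39 ± 0.34, adjusted p = 0.00697). Ccl3 had 7.67, 16.9, 53.5, 13.02 and 20.9 FPKM after LPS, against 1.54, 6.75, 3.45, 23.2 and 5.73 FPKM after saline (adjusted p = 0.107). It too passed without saline replicate 4 (adjusted p = 0.0454). Ccl7 had 2.80, 3.18, 9.61, 7.04 and 2.21 FPKM after LPS, against 0, 0.729, 0.135, 4.93 and 3.55 FPKM after saline (adjusted p = 0.19). The groups overlapped, but the 2 single-precision LPS libraries lay above the 3 single-precision saline libraries (log2 fold change 1.67 ± 0.25 there, adjusted p = 0.00872).

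At 72 h in females none of the 7 passed the threshold in limma, and 2 of them, Ccl5 and Ccl12, had an unadjusted p under 0.05. Calls were rare at this time, at 0.0772% higher and 0.0% lower of all tested genes. Every LPS library lay above every saline library for 3 members, Ccl4, Ccl5 and Ccl12, and for 2.34% of all tested genes. The median log2 fold change of the 7 was 1.07, beside -0.10 for all tested genes.

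Ccl5 had 5.45, 4.78 and 12.5 FPKM in the LPS libraries at 72 h, and 0.206, 0, 0 and 0.874 FPKM in saline. The groups were well apart, and the log2 fold change was 2.70 ± 0.70 (adjusted p = 0.232). Without replicates 4 and 5 of the 3 h LPS group, which share the error estimate, the value was the same with a smaller SE of 0.53 and an adjusted p of 0.0158. Ccl12 had 4.86, 4.80 and 19.0 FPKM after LPS, against 1.48, 1.77, 2.88 and 2.40 FPKM after saline (log2 fold change 1.51, adjusted p = 0.88). Ccl4 had 44.0, 44.5 and 57.9 FPKM after LPS, against 20.3, 23.4, 32.9 and 30.3 FPKM after saline, a separation by a smaller ratio at a higher level. Ccl3 had 26.6, 43.5 and 53.2 FPKM after LPS, against 13.3, 29.96, 20.4 and 13.1 FPKM after saline, and LPS replicate 1 lay within the saline range. Ccl2 had 3.21, 4.27 and 9.56 FPKM after LPS, against 0.392, 1.92, 2.18 and 4.76 FPKM after saline. Its groups overlapped, as did those of Ccl7, with 0.258, 0.698 and 6.05 FPKM after LPS and 0.348, 2.18, 3.25 and 2.41 FPKM after saline. Ccl19 was listed at 0 except for 0.529 FPKM in LPS replicate 1.

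**Figure D2:**
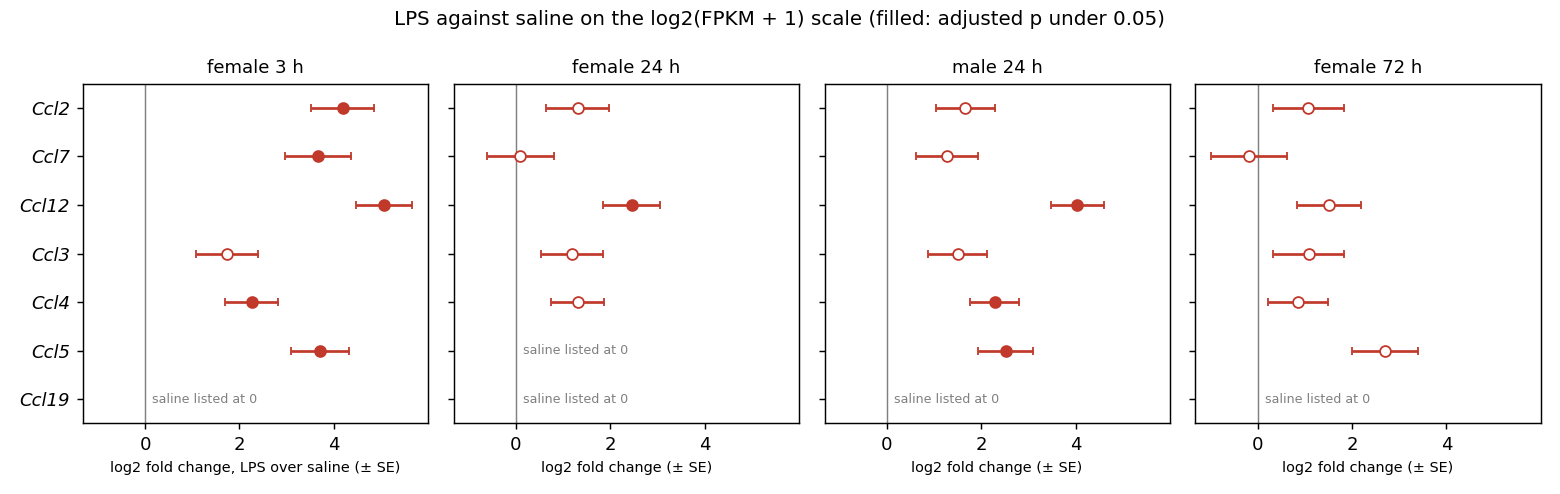
Log2 fold change of LPS over saline (x axis, points, with bars of ± 1 SE) for each CC chemokine (y axis) in the 4 comparisons, on the log2(FPKM + 1) scale; filled points have an adjusted p under 0.05, and no point is drawn where all saline libraries were listed at 0. Ccl12 stands at 5.07 at 3 h, 2.45 in females and 4.04 in males at 24 h, and at 72 h no point is filled.

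Over time, the female LPS groups did not follow one order for all members. Ccl2, Ccl7, Ccl12, Ccl3, Ccl4 and Ccl5 had their highest group mean in LPS at 3 h. For Ccl3 and Ccl4 the next highest group was female LPS at 72 h, at 41.1 ± 13.5 and 48.8 ± 7.86 FPKM (SD, n = 3). Female LPS at 24 h, at 14.2 and 17.0 FPKM on average, stood below female saline at 3 h and at 72 h. Its 3 single-precision libraries had 3.96 to 5.44 FPKM of Ccl3 and 7.17 to 8.73 FPKM of Ccl4. Its 1 double-precision library had 42.5 and 44.0 FPKM. All 3 h and 72 h libraries were in double precision, so the place of the 24 h groups in these orders mixes time with format. For Ccl2, Ccl7, Ccl5 and Ccl12 the second group was male LPS at 24 h, at 5.96, 4.97, 7.76 and 35.6 FPKM. Ccl19 differed in its order, with its highest mean of 2.28 FPKM in female LPS at 24 h, then 1.79 FPKM in male LPS at 24 h, 0.611 FPKM in LPS at 3 h and 0.176 FPKM in LPS at 72 h. Libraries of neighbouring groups in these orders overlapped, with 2 exceptions: every Ccl5 value in female LPS at 24 h was above every one in female saline at 3 h, and every Ccl12 value in female LPS at 72 h was above every one in female saline at 72 h. Overlap of ranges is no test, so nothing is read from the order among the other neighbours.

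The difference between the LPS effect at 24 h and that at 3 h, both in females, was tested directly. None of the 7 members passed the threshold, and 3 had an unadjusted p under 0.05, beside 0.293% of all genes called in the positive and 0.417% in the negative direction. The log2 difference was -3.57 ± 0.99 (SE) for Ccl7 (adjusted p = 0.10), -2.88 ± 0.94 for Ccl2 (adjusted p = 0.214) and -2.62 ± 0.84 for Ccl12 (adjusted p = 0.203). These values turned on few libraries. Without female LPS 24 h replicate 4, Ccl7 (adjusted p = 0.011), Ccl2 (adjusted p = 0.0344) and Ccl12 (adjusted p = 0.0485) passed, and without LPS 3 h replicate 4, Ccl2 (adjusted p = 0.0361) and Ccl7 (adjusted p = 0.0269) did. Without LPS 3 h replicates 4 and 5 the same 3 passed, at log2 differences of -4.57 for Ccl7, -4.10 for Ccl2 and -3.45 for Ccl12 (adjusted p = 0.00807, 0.00419 and 0.0288). With the number format as a covariate Ccl7 alone passed (-3.29, adjusted p = 0.0275). All 3 h and 72 h libraries were stored in double precision, so time and format can be told apart only through the double-precision libraries of 24 h. The LPS effect at 72 h minus that at 24 h was called in none of the 7, with 1 at an unadjusted p under 0.05, beside 0.0206% of all genes called positive and 0.324% negative.

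Between the sexes at 24 h, the LPS effect in males minus that in females was called in none of the 7, and none had an unadjusted p under 0.05. Over all tested genes 0.0% were called in either direction. Ccl12 had the largest of the member differences, 1.59 ± 0.82 on the log2 scale (adjusted p = 0.945). Among LPS libraries alone, males against females, Ccl12 averaged 35.6 ± 12.7 FPKM (SD, n = 5) in males and 10.2 ± 10.8 FPKM (SD, n = 4) in females. The log2 difference was 2.03 ± 0.59 (adjusted p = 0.174); no member was called and 3 had an unadjusted p under 0.05, beside 0.0566% of all genes higher and 0.0154% lower in males. That is 11 genes higher and 3 lower, against 8 and 8 after quantile normalization. For no member did every male LPS library lie above every female one, as it did for 2.56% of all genes. The ranges overlapped, since female LPS replicate 4, at 26.3 FPKM, lay within the male range of 23.2 to 51.5 FPKM. Within single-precision libraries Ccl12 (log2 difference 2.18 ± 0.32, adjusted p = 0.0203) and Ccl7 (1.87 ± 0.25, adjusted p = 0.0107) were higher in males, with 2 male and 3 female libraries. In double precision there was 1 female library, so no test is read there. It had 26.3 FPKM of Ccl12, against 28.9 to 51.5 FPKM in the 3 male libraries, and 8.93 FPKM of Ccl7, within the male range of 2.21 to 9.61 FPKM. Between male and female saline libraries none of the 7 was called and none had an unadjusted p under 0.05, beside 0.0309% of all genes higher and 0.0206% lower in males. No member was without overlap there, against 0.299% of all genes with every male library above every female library.

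Which members made up the total differed with treatment. In female libraries at 3 h, Ccl3 and Ccl4 together made up 49.0% ± 7.99 (SD, n = 5) of the summed FPKM of the 7 after LPS, against 88.1% ± 9.02 (SD, n = 4) after saline. No LPS library, at 41.4% to 59.5%, was as high as a saline library, at 75.0% to 95.3%. In females at 24 h the share was 46.0% to 55.2% after LPS and 67.8% to 100% after saline, again with no overlap. Each group held both number formats. The saline shares of 98.05% to 100% came from replicates 1 to 3, in single precision, with sums of only 1.749, 4.241 and 8.002 FPKM. Ccl2, Ccl5, Ccl12 and Ccl19 were listed at 0 in these libraries, so the shares there say little. Saline replicates 4 and 5, in double precision, had 73.93% and 67.78%, against 55.16% in the 1 double-precision LPS library. In males at 24 h the share was 32.0% to 63.1% after LPS and 53.1% to 91.7% after saline, and the ranges overlapped. At 72 h the means were 79.7% after LPS and 87.6% after saline, and the ranges overlapped as well. Among the 5 LPS libraries at 3 h, Ccl12 made up 18.2% to 27.6% of the sum, Ccl2 4.99% to 16.3% and Ccl5 1.80% to 6.82%. These shares are descriptions, since the members were summed as chosen.

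**Figure D3:**
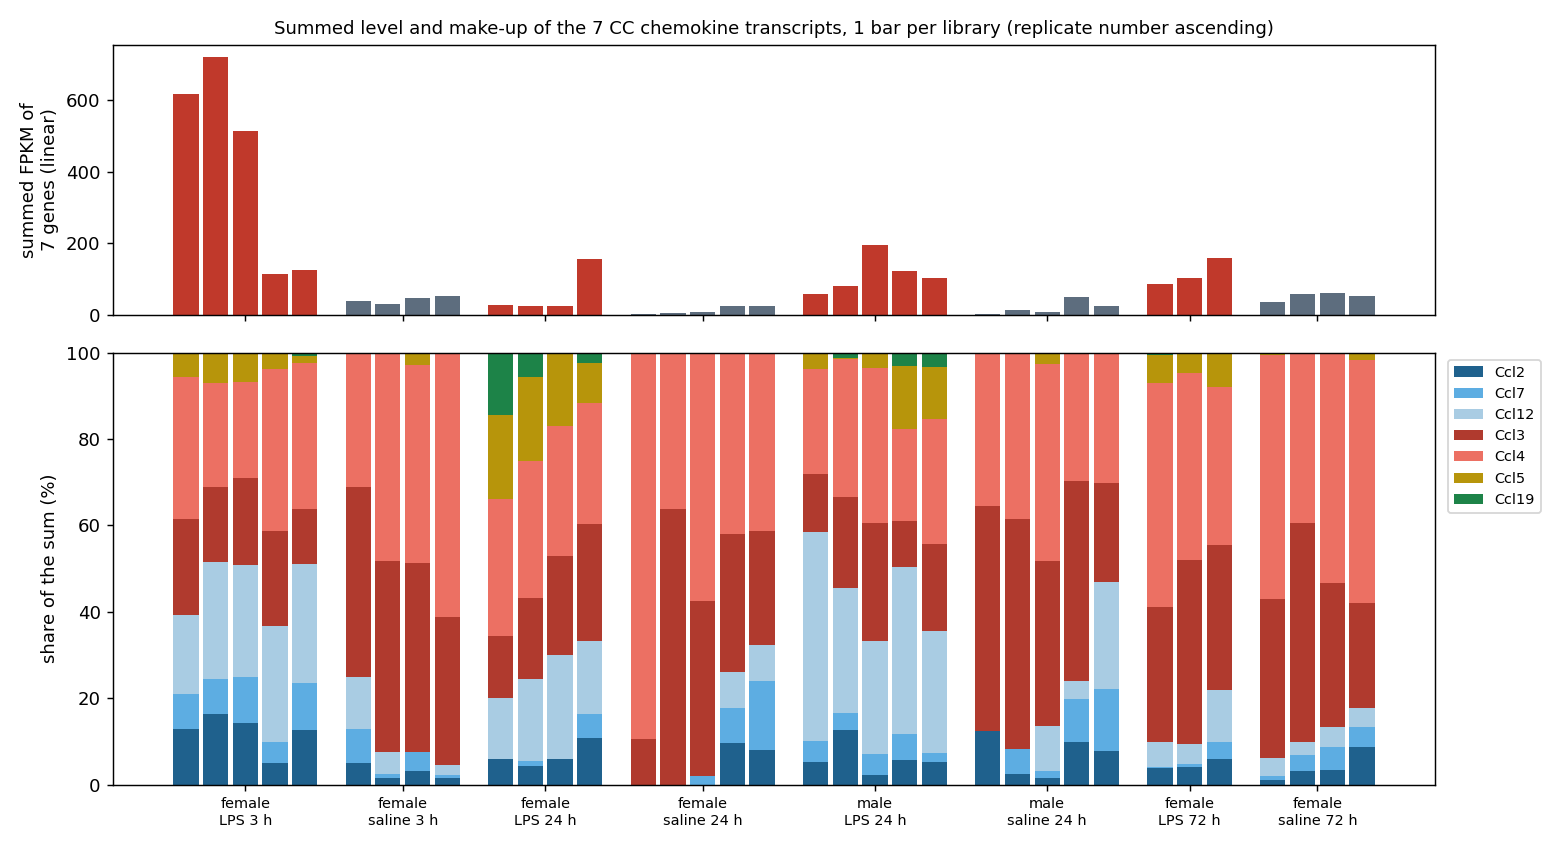
Summed FPKM of the 7 CC chemokines (upper panel, linear axis) and the share of each member in that sum in percent (lower panel), with 1 bar per library, grouped by sex, treatment and time. Ccl3 and Ccl4, in red tones, fill 75.0% to 95.3% of the saline bars at 3 h and 41.4% to 59.5% of the LPS bars at 3 h.

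The likeness of each member to the other genes was described by Pearson's r of log2(FPKM + 1) over the 35 libraries, which include LPS and saline libraries and both number formats. The 5 genes most like Ccl2 were Cd14 (r = 0.91), Map3k8, Cxcl2, C5ar1 and Cxcl1. For Ccl7 they were Phf11c (r = 0.891), Cxcl2, Sp110, Ifit2 and Slfn9, and for Ccl12 they were Ifit1 (r = 0.94), Tlr2, Ch25h, Cd14 and Hcar2. Ccl3 was most like Tm4sf1 (r = 0.901), Ccrl2, Cd83, Atf3 and Il1a, and Ccl4 most like Ccrl2 (r = 0.954), Zfp36, Cd83, Gadd45b and Fcgr3. Ccl5 was most like Zbp1 (r = 0.911), Il1b, H2-Q6, Cxcl16 and H2-Q4. Ccl19 was most like C1ra (r = 0.838), C3, Lrg1, H2-K1 and Timp1. Among the members, r was 0.952 between Ccl3 and Ccl4 and 0.923 between Ccl2 and Ccl7, the 2 pairs of direct neighbours on chromosome 11. Ccl19 stood lowest, at 0.183 to 0.597 with the other six.

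Of 17 further CC chemokine genes looked for, 4 were in the table: Ccl6, Ccl9, Ccl25 and Ccl27a. Ccl9, which lies between Ccl5 and Ccl3, was the only one called, and only at 3 h, where it had 4.60 ± 2.79 FPKM after LPS (SD, n = 5) and 0.787 ± 0.118 FPKM after saline (SD, n = 4). Its log2 fold change there was 1.47 ± 0.29 (adjusted p = 0.00112). Of 16 genes for CC chemokine receptors and atypical receptors, 5 were in the table. Of these, 2, 1, 2 and 0 were higher after LPS at 3 h, in females and males at 24 h and at 72 h. Over all tested genes the shares called higher were 1.94%, 2.54%, 7.08% and 0.0772% in the same order. Ackr1, an atypical receptor that binds CC and CXC chemokines without G protein signalling, had 15.3 ± 2.93 FPKM after LPS and 3.23 ± 1.16 FPKM after saline at 3 h (adjusted p = 0.0024). At 24 h it had 17.3 to 22.6 FPKM in LPS libraries and 0.977 to 2.98 FPKM in saline libraries of females (adjusted p = 5.5e-05), with no overlap within either format. In males Ackr1 had 4.05 to 57.2 FPKM in LPS and 2.08 to 4.39 FPKM in saline libraries, which overlapped through 1 LPS library (adjusted p = 2.93e-05). Ccrl2, an atypical receptor of the same family, had 16.8 ± 8.42 FPKM after LPS and 3.14 ± 1.81 FPKM after saline at 3 h (adjusted p = 0.00132), and was also higher in males at 24 h, at 3.12 to 11.6 FPKM against 0.697 to 3.08 FPKM (adjusted p = 0.0141). The receptors Ccr1, Ccr2 and Ccr7 were not among the genes analysed here.

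The genes upstream of chemokine transcription were taken as lists. Of all tested genes, 1.94% were higher at 3 h, 2.54% in females and 7.08% in males at 24 h, and 0.0772% at 72 h. The counts below stand beside these shares. Of 28 measured genes of LPS sensing and NF-kB, 9 were higher at 3 h, 3 in females and 9 in males at 24 h and 0 at 72 h, with none lower. In females at 24 h they were Bcl3 (log2 fold change 2.15), Cd14 (1.65) and Nfkbia (1.02). At 3 h the leading ones were Cd14, the LPS co-receptor (log2 fold change 3.93), Bcl3, which had 7.33 to 10.5 FPKM after LPS and was listed at 0 in all saline libraries, Myd88, the adaptor of Toll-like receptors (2.36), and Nfkbia, an NF-kB inhibitor (1.99). In males at 24 h Cd14 (2.50), Bcl3 (2.28), Lbp (1.58) and Relb (1.49) led. Of 11 measured receptors for cytokines that raise chemokines, 3 were higher in each of the comparisons at 3 h and 24 h and 0 at 72 h. They were Osmr, Il1r1 and Tnfrsf1a at 3 h, and Osmr, Il17ra and Tnfrsf1a at 24 h in both sexes. Of 12 measured chemokines of the CXC, CX3C and XC families, 5 were higher at 3 h, 2 in females and 4 in males at 24 h, and 2 at 72 h. Cxcl10, an attractant of T cells, was among them each time, with log2 fold changes of 7.46 at 3 h, 3.40 and 3.93 in females and males at 24 h and 3.03 at 72 h (adjusted p = 0.00824).

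Markers of other cells that make these chemokines were present beside those of astrocytes. The summed FPKM of 10 astrocyte markers ran from 5942 to 11980 over the 35 libraries. All 19 microglia markers were measured, and none was at 0 throughout a group. At 3 h their sum was 197 to 391 FPKM in LPS libraries and 319 to 558.5 FPKM in saline libraries, so the ranges overlapped and the lowest sums were those of LPS libraries. P2ry12 and Gpr34 fell there and no marker rose. At 72 h the sum was 873 to 1508 FPKM in LPS libraries and 340.5 to 740.4 FPKM in saline libraries, with no overlap, and no single marker was called. In bulk samples fewer cells of a type and less RNA per cell cannot be told apart.

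At 24 h the microglia sum was 146 to 381.5 FPKM in LPS and 71.5 to 343 FPKM in saline libraries of females, and 199.8 to 500.3 FPKM in LPS and 99.2 to 350.3 FPKM in saline libraries of males. It differed by format: female LPS replicate 4, with the high chemokine values, had 381.5 FPKM, against 146 to 155 FPKM in the other three. Within each format and sex every LPS library had a higher sum than every saline library. In males Aif1, Itgam, C1qb, C1qa and Csf1r rose and P2ry12 and Gpr34 fell, and in females P2ry12 fell. The part of these transcripts in the chemokine values was not tested.

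The defining markers of blood leukocytes were few. Of 8 neutrophil markers 3 were in the table, with sums of 2.37 to 27.3 FPKM in LPS libraries and 0 to 4.44 FPKM in saline libraries over all times. S100a8 and S100a9 were called higher at 24 h in both sexes and were at 0 in every saline library at 3 h and 72 h. Of 8 monocyte markers 3 were in the table, with sums up to 20.96 FPKM in LPS and 13.9 FPKM in saline libraries, and Fn1 was called higher in males at 24 h. Ly6c2, a marker of inflammatory monocytes, was at 0 in every LPS library at 3 h and in every LPS and saline library at 72 h. Of 12 T and NK cell markers 1 was in the table, at no more than 1.41 FPKM in LPS and 1.59 FPKM in saline libraries. Of 7 border macrophage markers in the table, the sum was 2.37 to 29.0 FPKM in LPS and 24.4 to 60.1 FPKM in saline libraries at 3 h, and F13a1 fell there. At 24 h it was 2.29 to 27.3 FPKM in LPS and 0.222 to 48.3 FPKM in saline libraries of females. There saline replicates 1 to 3 had 0.222 to 0.785 FPKM and saline replicates 4 and 5 had 37.9 and 48.3 FPKM. Ccl2, Ccl3, Ccl4, Ccl7 and Ccl12 split alike in these saline libraries. So did the microglia sum, at 71.55 to 107.3 FPKM against 222.1 and 342.9 FPKM. In males at 24 h the border macrophage sum was 4.02 to 29.7 FPKM in LPS and 0.892 to 43.2 FPKM in saline libraries. At 72 h it was 15.2 to 74.9 FPKM in LPS and 7.82 to 27.6 FPKM in saline libraries. LPS replicate 3, the highest, also had the most Ccl2, Ccl3, Ccl4, Ccl5, Ccl7 and Ccl12, and the highest microglia sum (1508 FPKM). The 5 fibroblast markers in the table summed to 10.7 to 17.9 FPKM in LPS and 6.27 to 9.69 FPKM in saline libraries of females at 24 h, and to 12.5 to 29.2 FPKM in LPS and 7.68 to 12.3 FPKM in saline libraries of males. Neither pair of ranges overlapped, and Col1a2 rose in both sexes. The 14 endothelial markers summed to 157.5 to 211 FPKM after LPS and 232 to 346 FPKM after saline at 3 h. Cldn5, Slco1a4, Egfl7 and Tek led 5 that fell there, beside 0.443% of all tested genes called lower. At 24 h the endothelial sum was 153 to 194.5 FPKM in LPS and 77.6 to 177.8 FPKM in saline libraries of females, and 158 to 309.9 FPKM in LPS and 104.7 to 181.7 FPKM in saline libraries of males. Vwf and Ly6c1 rose in both sexes, with Egfl7 and Pecam1 in males. The part of these cells in the chemokine values was not tested.

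**Figure D4:**
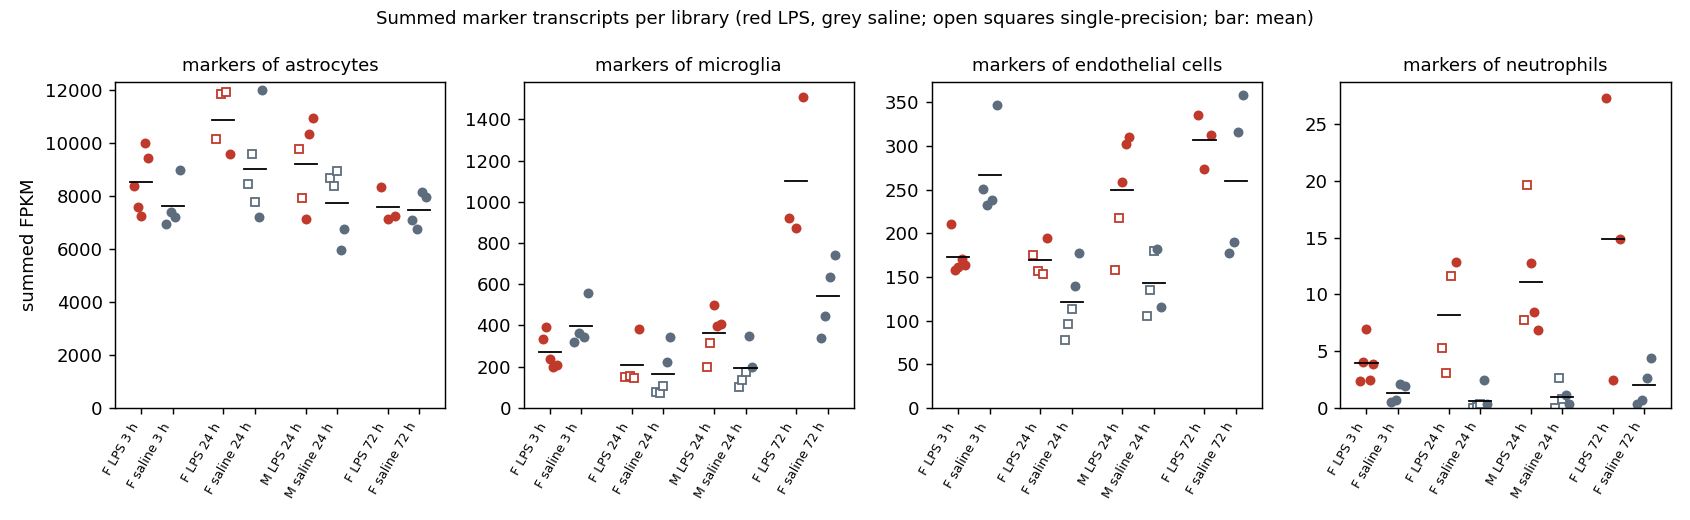
Summed FPKM (y axis, linear, from 0) of the measured markers of astrocytes, microglia, endothelial cells and neutrophils in each library (points), by sex, treatment and time (x axis), with a bar at the group mean. The microglia sum is 197 to 391 in LPS and 319 to 558.5 in saline libraries at 3 h, and 873 to 1508 in LPS and 340.5 to 740.4 in saline libraries at 72 h.

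The authors' deposited table of fold changes gave another reading of the same comparisons. At 3 h, 5 of 7 members were higher in the authors' deposited table at an adjusted p under 0.05, beside 2.61% of the genes with an adjusted p. These were Ccl2 (log2 fold change 3.17), Ccl7 (2.66), Ccl4 (1.97), Ccl12 (1.93) and Ccl3 (1.63, adjusted p = 0.00295). Ccl3 was thus called there and Ccl5 was not (0.86, adjusted p = 0.364 in the authors' deposited table), the reverse of the limma result. For females at 24 h the authors' deposited table called a single member of 6 with an adjusted p, Ccl5 (3.85, adjusted p = 1.34e-15), beside 2.86% of genes. In males at 24 h the authors' deposited table called 5 of 7 higher, Ccl2, Ccl4, Ccl5, Ccl12 and Ccl19, beside 8.96% of genes; Ccl2 was near the threshold, at an adjusted p of 0.0491. At 72 h the authors' deposited table called 3 of 6, Ccl5 (1.73, adjusted p = 1.39e-04), Ccl12 (1.22, adjusted p = 0.0394) and Ccl4 (0.89, adjusted p = 0.00863), beside 0.723% of genes. These 3 are also the members with no overlap between LPS and saline at 72 h. Whether those fold changes were shrunk is not stated in the sources used here.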

How the data were processed

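RNA of astrocytes sorted from the cortex was amplified with SMART-seq HT and made into Nextera XT libraries, per the labels. The authors deposited FPKM per gene and library, on mouse build mm10, with HISAT2, StringTie and DESeq2 named in the submitters' processing notes; versions are not given in the sources used here. For each comparison the authors' deposited table also gives log2 fold changes with adjusted p-values. FPKM is not a count, so no count test was run, and the depth in reads is unknown.

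Of 19584 entries, 11 repeated a gene identifier and were dropped, which left 19573 genes, with a smallest mean of 0.500012 FPKM. Positions and sequences come from GENCODE M21 and RefSeq. log2(FPKM + 1) of 19426 genes with at least 1 FPKM in at least 3 libraries was fitted with limma 3.58.1 (R 4.3.3), with 1 coefficient per group over all 35 libraries, empirical Bayes with a trend, and Benjamini-Hochberg adjustment over all tested genes, at a threshold of 0.05. A fold change on this scale understates the change of low genes. The fit was tested on simulated data of independent normal values, with changes added only to genes with a mean above 1 on the log2 scale. The simulation held no difference by number format and no libraries set apart from their group, so it does not bear on those features.

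The deposited values are stored in 2 number formats: 11 libraries in single precision (replicates 1 to 3 of female LPS, female saline and male saline, and replicates 1 and 2 of male LPS, all at 24 h) and 24 in double precision. The labels name no batch; the format was used as one. The further gene lists and the microglia and neutrophil markers held 39 calls at 24 h, counted per sex. All 39 had the same direction in both formats. The calls came from these same libraries pooled, so such agreement was largely built in and is no check of the format. Markers of the other cell types were not compared by format.

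The members and lists were chosen with earlier results of these data known. All 7 members are named. Of each further list, at most 4 genes past the threshold are named per comparison, by the size of the log2 fold change, and beside them marker genes called in the lists of other cell types; for likeness, the 5 genes with the highest r, leaving out members, predicted genes and pseudogenes. The values of 1 further gene of the lists are not reported here.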

Additional observations from a re-analysis of the deposited data

Results flagged for a closer look

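In 44 sets of 4 or 5 libraries, each 1 gene in 1 group, a library stood apart in 6 cases on the log2(FPKM + 1) scale. The measure was Dixon's ratio at the 95% level. The sets share libraries and hold correlated genes, so the cases are not independent, and their number is not set against a rate by chance. In 4 cases it was replicate 4 of female LPS at 24 h, with 16.8 FPKM of Ccl2, 42.5 FPKM of Ccl3, 44.0 FPKM of Ccl4 and 8.93 FPKM of Ccl7, each above the other three libraries. This is the only double-precision library of its group. Ccl5 had 1.34 FPKM in replicate 3 of female saline at 3 h and 0.232 FPKM in replicate 3 of male saline at 24 h, where the other libraries of those groups were listed at 0. Against zeros any value above 0 stands apart, so these 2 cases cannot be set against chance.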

How the results depend on the processing

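Depth in reads is unknown, and values listed at 0 limit Ccl5 and Ccl19 in saline. At 3 h, leaving out LPS libraries 4 and 5 called 6 members and leaving out 1 library called 4 to 5; each of the other alternatives run called 5. Pseudocounts of 0.1 and 0.5, no filter and no trend changed no member call. In females at 24 h, the double-precision libraries alone called 0 members, with 1 gene higher and 2 lower, and with the 3 h and 72 h libraries (an alternative chosen after seeing the data) 0 members, 16 higher and 2 lower. The fit on the compared groups alone gave 303 higher and 58 lower. In it Ccl19 lost its call (adjusted p = 0.0781), and in males Ccl2 gained one (adjusted p = 0.0268), as it did with TPM (adjusted p = 0.0473). In males at 24 h, quantile normalization gave 805 higher and 713 lower, the compared groups alone 2224 and 545, single-precision libraries 152 and 17, double-precision libraries 2 members, 95 and 13, and with the other times 224 and 21. At 72 h, quantile normalization gave 1 gene lower, the compared groups alone 2 higher, the format covariate 26, the added double-precision fit 9, and the fit without LPS 3 h libraries 4 and 5 called 1 member and 30 genes. For the effect at 24 h minus 3 h the format covariate called 1 member and the fit without those libraries 3. Between LPS males and females single precision called 2 members. Leaving out each library in turn gave 1 to 3 members, 315 to 736 higher and 72 to 317 lower for females at 24 h, 3 to 6 members, 590 to 1574 and 103 to 500 for males, 3 to 25 higher and 0 to 1 lower at 72 h, 291 to 415 higher and 58 to 103 lower at 3 h, and 0 to 3 members for 24 h minus 3 h. Fewer libraries entered the fits by format, on the compared groups alone and with libraries left out. The cause of the changes was not tested for any setting.

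Same-numbered LPS and saline libraries had correlations of deviations from -0.404 to 0.372, so the numbers were not taken as pairs. With the replicate block, 5, 3, 4 and 0 members were called at 3 h, in females and males at 24 h and at 72 h, and 63 of 63 member calls were as without it.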
